A study of Homo sapiens with 24 samples.

Results

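Immediate early genes are transcribed within minutes of a stimulus without new protein synthesis, because the factors that bind their promoters are already present in the cell and are switched on by kinases such as ERK. Many of the products are transcription factors. FOS and JUN family proteins pair as the dimer AP-1, and EGR proteins are zinc-finger factors that bind GC-rich sites. Their mRNAs are usually short-lived, so the level falls soon after transcription stops. In embryonic stem cells the ERK pathway is active in culture and responds to the growth factors of the medium.

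The 10 genes described here are FOS, FOSB, JUN, JUNB, JUND, EGR1, EGR2, EGR3, ARC and IER2. They were taken as the rows of the deposited gene table whose Ensembl identifier carries 1 of these symbols. All 10 were found among 57820 genes, and all 10 passed the filter on low read numbers, which 19835 genes passed. The cells were HUES6, an established line of human embryonic stem cells grown in FTDA, a defined medium. WT libraries came from cells with no edited gene named in the labels, and KO libraries came from cells lacking RBPMS, which encodes an RNA-binding protein. Each genotype was sampled at 0 h (labelled control) and after 3, 6 and 48 h of mesoderm induction with BMP4 at 1.5 ng/ml and CHIR, a GSK3 inhibitor that activates WNT signalling, at 1.5 µM. There were 3 libraries in each of the 8 groups. The labels do not say whether the libraries of 1 group stem from different cultures or how many KO clones were used, so p-values measure only the spread between these libraries, which may be technical. The 0 h libraries serve as the starting point of both time courses.

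The gene table rested on 29896358 to 50451908 reads per library. RBPMS mRNA was at 153 to 158 CPM (reads scaled to the size of the library) in KO and 121 to 155 CPM in WT at 0 h, so its mRNA level does not check the genotype label, and whether the remaining mRNA is altered was not tested. The 7 stem cell markers summed to 4955 to 8820 CPM in every library. At 48 h they summed to 4955 to 5231 CPM in WT and 6579 to 6739 CPM in KO. The 6 primitive streak and mesoderm markers went from 2.50 to 5.69 CPM at 0 h to 1681 to 1861 CPM in WT and 1051 to 1179 CPM in KO at 48 h. The genotypes thus did not overlap at 48 h in either sum. The 6 fibroblast markers summed to 305 to 807 CPM, and COL3A1, DCN and LUM of these were under 1 CPM in all 8 groups. In these bulk libraries, fewer cells with an mRNA and less of it per cell cannot be told apart.

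The region before the start site is where the factors that switch on immediate early genes bind. RefSeq (GRCh38.p14) start sites were matched for 8 of the 10 members, not for EGR3 and ARC, and were searched over the 250 bases before the start, on both strands, for the CArG box, the site of serum response factor, and for TGACGT, the core of the cyclic AMP response element bound by CREB and ATF factors. The sequences shown are those of EGR1, JUND and EGR2, in which these motifs stood together or repeated, and of FOS. FOS, the best known member, had a single match in this window. Sites farther from the start were not searched in any member. Capitals mark the CArG box and TGACGT matches only, with ACGTCA being TGACGT on the other strand. They are EGR1 at chr5:138465229-138465478 on the plus strand, FOS at chr14:75278578-75278773 on the plus strand, JUND at chr19:18281623-18281872 on the minus strand, and 30 bases of EGR2 at chr10:62816416-62816445 on the minus strand. The FOS stretch ends where the GENCODE 29 gene begins, and the EGR2 stretch is short because longer transcripts of the gene span it.
EGR1: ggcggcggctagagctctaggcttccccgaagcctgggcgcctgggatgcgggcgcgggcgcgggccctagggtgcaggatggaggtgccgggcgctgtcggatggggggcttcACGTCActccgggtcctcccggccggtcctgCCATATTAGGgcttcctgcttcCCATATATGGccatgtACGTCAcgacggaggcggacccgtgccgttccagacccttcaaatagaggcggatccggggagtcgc
FOS: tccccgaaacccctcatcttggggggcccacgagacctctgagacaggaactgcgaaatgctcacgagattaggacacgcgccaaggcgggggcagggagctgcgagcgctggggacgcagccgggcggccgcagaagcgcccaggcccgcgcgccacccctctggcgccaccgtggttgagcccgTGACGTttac
JUND: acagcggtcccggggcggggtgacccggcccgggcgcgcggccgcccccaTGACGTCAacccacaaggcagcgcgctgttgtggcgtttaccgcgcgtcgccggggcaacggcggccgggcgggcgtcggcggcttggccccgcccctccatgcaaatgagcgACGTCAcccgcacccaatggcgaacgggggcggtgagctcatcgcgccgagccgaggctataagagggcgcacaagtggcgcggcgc
EGR2: tcctcagtCCATATATGGgcagcgACGTCA

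EGR1 held 2 CArG boxes, whose first bases lay 105 and 83 bases before the RefSeq start, and 2 copies of TGACGT, at 136 and 67 bases. Of all 35093 promoters searched in the same way 1.16% held a CArG box and 7.1% held TGACGT. FOS held 1 TGACGT at 64 bases and a TATAAA at 33 bases before the start. JUND held the palindrome TGACGTCA at 200 bases (present in 1.65% of promoters), which counts as TGACGT on both strands, and another TGACGT at 87 bases. Of the 3 start sites listed for EGR2, the third held a CArG box at 71 bases and a TGACGT at 55 bases. FOSB held TGACGT at 60 bases, TATAAA at 30 bases and CCGGAA, the core of ETS factor sites, at 205 bases. JUNB held TATAAA at 31 bases, and IER2 held CCGGAA at 26 bases. In all promoters TATAAA occurred in 10.7% and CCGGAA in 14.5%. EGR1 also held GCGNGGGCG, the EGR site (8.41% of promoters), at 198 bases. No motif of those searched, which included TGANTCA (the AP-1 site, 6.57% of promoters), matched in the JUN window. A match is a description of the letters only.

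By mean level most immediate early genes were highest at 3 h and lower at 6 h in both genotypes. The fall from 3 h to 6 h was called for all 10 members in KO and for 5 in WT. KO libraries were above WT libraries at 3 h for all 10 members, with ratios of mean CPM from 1.27 (FOSB) to 2.46 (EGR3 and ARC). At 6 h and 48 h no member was called different between genotypes. JUN and JUND differed in shape from the others. From 0 h to 3 h they were called higher in KO but not in WT, and from 6 h to 48 h both rose in each genotype. The plot of levels by library shows all values, and 2 libraries need naming before the comparisons. WT 0 h library 1 and KO 3 h library 3 stood apart from the other libraries of their groups in these genes.

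**Figure D1:**
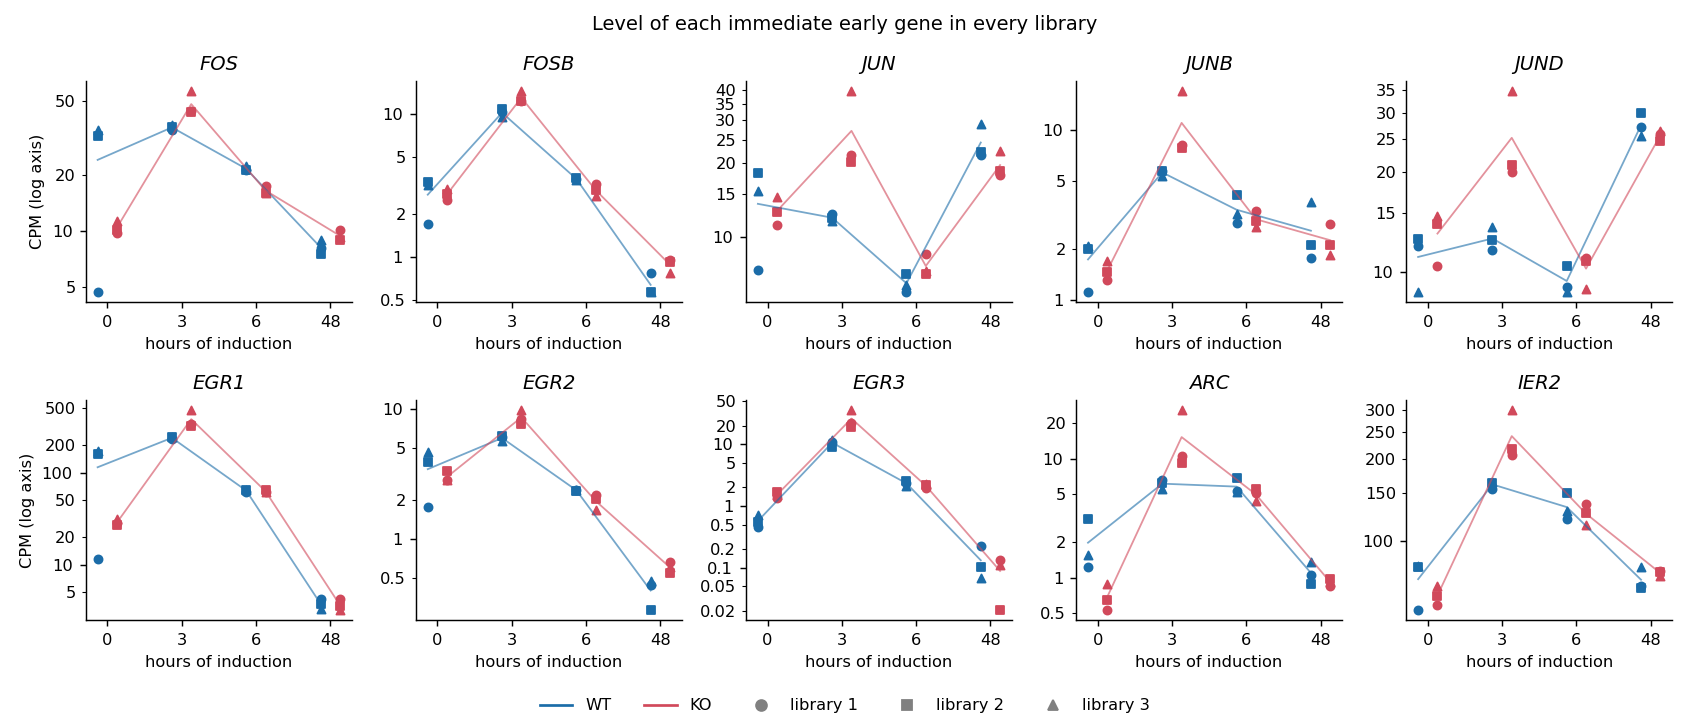
Level of each member in CPM (log axis, with a scale of its own in each panel) against hours of induction, with 1 point per library and lines through group means, WT in blue and KO in red. KO points lie above WT points at 3 h in all 10 panels, WT 0 h library 1 lies far below its group in EGR1 and FOS, and KO 3 h library 3 is the highest KO point at 3 h in every panel.

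WT 0 h library 1 was more than 1.5 times below both other libraries of its group in 6 of the 10 members, namely FOS, FOSB, JUN, JUNB, EGR1 and EGR2. Of all genes tested 10.2% lay that far below. EGR1 in that library was 14.4 times under the mean CPM of its group mates, and FOS 7.19 times. Mitochondrially encoded reads made up 4.64% of that library and 7.22% and 7.36% of the other WT libraries at 0 h. KO 3 h library 3 was more than 1.5 times above both group mates in 5 members, JUN, JUNB, JUND, EGR3 and ARC, against 6.12% of all genes. The remaining members were 1.18 times (FOSB) to 1.47 times (EGR1) above the mean of the group mates there. WT 48 h library 3, which also stood apart across all genes, was that far above in JUNB alone (6.22% of all genes).

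Deviations of KO 3 h library 3 from its group mates moved with the GC content of the genes across the table (r = 0.37, over genes, which are not replicates). In the other 23 libraries this r lay between -0.37 (KO 0 h library 1) and 0.36 (WT 48 h library 3). The longest transcripts of JUND (69.7% GC), ARC (66.8%), JUNB (64.9%) and IER2 (61.7%) lay at or above the 91st percentile of tested genes in GC. EGR3, which was also raised in this library, was at 51.9% GC. Whether GC content accounts for part of the member values was not tested. Where leaving out either library ended a call or moved a called value by over 1.5 times, both values are given.

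**Figure D2:**
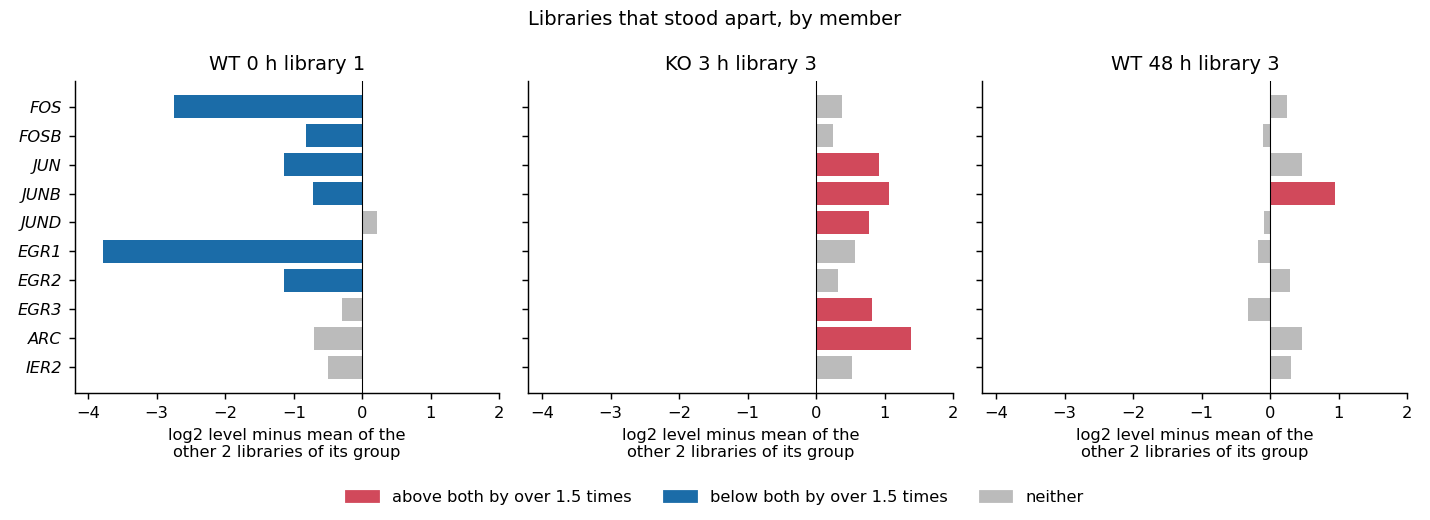
Log2 level of each member in 3 libraries minus the mean log2 level of the other 2 libraries of the same group (horizontal axis, log2 units), with bars coloured where the library is more than 1.5 times above (red) or below (blue) both. In WT 0 h library 1 the bars of 6 members are blue, with EGR1 at -3.79, and in KO 3 h library 3 the bars of 5 members are red, with ARC at 1.39.

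The FOS family was considered first. FOS (chr14:75278774-75282230, plus strand) encodes the prototype FOS subunit of AP-1. In WT libraries 1, 2 and 3 it started at 4.70, 32.6 and 35.0 CPM at 0 h and reached 34.8, 36.1 and 37.2 CPM by 3 h. The KO libraries started at 9.74, 10.2 and 11.4 CPM and reached 43.9, 43.9 and 56.5 CPM. The 2 WT libraries 2 and 3 at 0 h were already near the 3 h level, the first was not, and the 3 KO libraries at 0 h lay between them.

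FOS rose from 0 h to 3 h in KO by a log2 change of 2.22 ± 0.40 (SE, adjusted p = 4.13e-05). In WT it rose by 1.12 ± 0.40 (adjusted p = 0.0213) with all libraries, and without WT 0 h library 1 the log2 change was 0.20 ± 0.11 (adjusted p = 0.115). The WT call at 3 h was also lost without WT 3 h library 3 (1.09, 0.0527). By 6 h FOS was at 21.2 to 22.3 CPM in the WT libraries and 16.02 to 17.4 CPM in the KO libraries, with no overlap. By 48 h it was at 7.51 to 8.89 CPM in the WT libraries and 8.88 to 10.1 CPM in the KO libraries, where the groups overlapped.

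FOSB (chr19:45467995-45475179, plus strand) encodes a FOS paralogue that also pairs with JUN proteins. It was at 1.68, 3.32 and 3.15 CPM in the WT libraries and 2.48, 2.77 and 2.96 CPM in the KO libraries at 0 h. By 3 h the level was 10.3, 10.8 and 9.47 CPM in the WT libraries and 12.2, 12.3 and 14.4 CPM in the KO libraries. The log2 changes were 1.96 ± 0.17 in WT (adjusted p = 2.43e-09) and 2.19 ± 0.17 in KO (1.93e-10). They differed by 0.24 ± 0.24 (0.609), and without WT 0 h library 1 by 0.51 ± 0.18 (0.0388), which was called. FOSB then fell to 3.47 to 3.55 CPM in the WT libraries and 2.64 to 3.21 CPM in the KO libraries at 6 h, and to under 1 CPM in all 6 libraries at 48 h.

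The JUN family supplies the partner of FOS proteins in AP-1. JUN (chr1:58780788-58784327, minus strand) was at 7.33, 18.3 and 15.4 CPM in the WT libraries and 11.2, 12.6 and 14.6 CPM in the KO libraries at 0 h. At 3 h WT libraries were at 12.4, 11.9 and 11.7 CPM and KO libraries at 21.6, 20.4 and 39.6 CPM. KO libraries 1 and 2 lay close together above every WT library, and library 3 lay far above both. From 0 h to 3 h JUN rose in KO by 1.06 ± 0.24 (log2, adjusted p = 0.000533), while in WT the log2 change was 0.01 ± 0.24 (0.972).

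JUN fell below its 0 h level at 6 h in both genotypes, to 5.96, 7.06 and 6.37 CPM in WT (log2 change from 0 h -0.83 ± 0.24, adjusted p = 0.0051) and to 8.53, 7.06 and 7.22 CPM in KO (-0.64 ± 0.24, 0.0222). At 48 h it was at 21.8, 22.3 and 29.1 CPM in the WT libraries and 17.9, 18.6 and 22.5 CPM in the KO libraries. From 6 h to 48 h it rose in WT (1.71 ± 0.24, 1.76e-06) and in KO (1.20 ± 0.24, 0.000162).

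JUND (chr19:18279760-18281622, minus strand) encodes the JUN protein that is known for a broad, steady expression. At 0 h it was at 11.99, 12.6 and 8.73 CPM in the WT libraries and 10.4, 13.9 and 14.8 CPM in the KO libraries. After 3 h of induction it was at 11.6, 12.5 and 13.7 CPM in the WT libraries and 19.9, 20.9 and 34.8 CPM in the KO libraries. The WT groups at 0 h and 3 h overlapped (log2 change 0.29 ± 0.17, adjusted p = 0.156), and all 3 KO libraries at 3 h lay above every library at 0 h (0.96 ± 0.17, 4.2e-05 within KO). At 48 h JUND was at 25.5 to 29.9 CPM in the WT libraries and 24.7 to 26.4 CPM in the KO libraries, about the level of KO at 3 h. The rise from 0 h to 48 h was 1.28 ± 0.17 in WT (1.44e-06) and 0.92 ± 0.17 in KO (0.000101).

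JUNB (chr19:12791496-12793315, plus strand) encodes a JUN protein that can restrain JUN activity. It was at 1.12, 2.00 and 2.09 CPM in the WT libraries and 1.32, 1.47 and 1.71 CPM in the KO libraries at 0 h. At 3 h it was at 5.77, 5.72 and 5.37 CPM in the WT libraries and 8.20, 7.87 and 16.9 CPM in the KO libraries. JUNB rose from 0 h by 1.69 ± 0.27 in WT (adjusted p = 1.28e-05) and by 2.65 ± 0.27 in KO (1.22e-08). At 6 h it was at 2.71 to 4.14 CPM and at 48 h at 1.77 to 3.80 CPM over both genotypes, with overlap at both hours.

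The EGR genes were considered next. EGR1 (chr5:138465490-138469315, plus strand) encodes the best studied of these zinc-finger factors. In WT libraries 1, 2 and 3 at 0 h it was at 11.5, 159 and 172 CPM, and in KO at 28.1, 27.1 and 31.0 CPM. By 3 h the level was 229, 243 and 242 CPM in the WT libraries and 340, 316 and 482 CPM in the KO libraries. Library 1 of WT at 0 h was below all KO libraries and the other two were above them, so the order of the genotypes at 0 h turned on that library.

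EGR1 rose from 0 h to 3 h in KO by 3.74 ± 0.55 (log2, adjusted p = 2.81e-06) and in WT by 1.90 ± 0.55 (0.00522). Without WT 0 h library 1 the WT rise was 0.64 ± 0.13 (0.000217). At 6 h EGR1 was at 60.8, 65.4 and 64.8 CPM in the WT libraries and 61.3, 64.5 and 62.0 CPM in the KO libraries, and at 48 h at 3.34 to 4.21 and 3.20 to 4.20 CPM. The genotypes overlapped fully at these hours, and EGR1 at 48 h was below every library of 0 h. Per kilobase of exon EGR1 had the highest mean level of the 10 members at 3 h, 75.9 CPM per kilobase in WT and 121 in KO.

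EGR2 (chr10:62811996-62919900, minus strand) encodes a factor known for hindbrain and Schwann cell development. It was at 1.77, 3.92 and 4.68 CPM in the WT libraries and 2.83, 3.37 and 2.83 CPM in the KO libraries at 0 h, and at 6.14, 6.18 and 5.68 CPM in the WT libraries and 8.38, 7.62 and 9.92 CPM in the KO libraries at 3 h. The change from 0 h was 0.95 ± 0.22 in WT (log2, adjusted p = 0.000796) and 1.49 ± 0.22 in KO (2.76e-06), and in WT it was 0.57 ± 0.16 (0.00363) without WT 0 h library 1. At 48 h EGR2 was at 0.284 to 0.477 CPM in the WT libraries and 0.550 to 0.664 CPM in the KO libraries, with no overlap. These levels rested on 11 to 27 reads per library.

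EGR3 (chr8:22687659-22693302, minus strand) encodes a close relative of EGR2 known from muscle spindles and T cells. At 0 h it was at 0.453, 0.549 and 0.707 CPM in the WT libraries and 1.37, 1.70 and 1.52 CPM in the KO libraries. After 3 h of induction it was at 10.98, 9.03 and 11.8 CPM in the WT libraries and 22.5, 19.2 and 36.4 CPM in the KO libraries. KO libraries were above all WT libraries at both hours. The rise to 3 h was 3.81 ± 0.20 in WT (log2, adjusted p = 7.06e-13) and 3.88 ± 0.20 in KO (2.01e-13), and these differed by 0.08 ± 0.29 (0.912). EGR3 was at 1.97 to 2.52 CPM over both genotypes at 6 h and at 0.0204 to 0.224 CPM at 48 h, where 1 library rested on a single read and a library with no read would allow up to 0.0611 CPM (3 reads, counting error only).

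ARC (chr8:142611044-142614472, minus strand) encodes a cytoskeleton-associated protein best known from synapses. At 0 h it was at 1.23, 3.12 and 1.55 CPM in the WT libraries and 0.531, 0.649 and 0.892 CPM in the KO libraries. At 3 h it was at 6.64, 6.27 and 5.57 CPM in the WT libraries and 10.5, 9.19 and 25.8 CPM in the KO libraries. KO libraries were below all WT libraries at 0 h and above all of them at 3 h. In WT the level at 6 h (5.31, 6.92 and 5.23 CPM) overlapped that at 3 h, and in KO it had fallen to 5.11, 5.52 and 4.38 CPM (log2 change from 3 h -1.37 ± 0.29, adjusted p = 0.00208). Without KO 3 h library 3 that change was -0.91 ± 0.25 (0.0164).

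IER2 (chr19:13150415-13154908, plus strand) encodes a nuclear protein induced by growth factors. It was at 55.8, 80.6 and 81.1 CPM in the WT libraries and 58.3, 62.8 and 68.3 CPM in the KO libraries at 0 h. By 3 h the level was 155, 163 and 165 CPM in the WT libraries and 206, 217 and 302 CPM in the KO libraries. IER2 rose to 3 h by 1.27 ± 0.14 in WT (log2, adjusted p = 6.43e-08) and by 1.96 ± 0.14 in KO (2.93e-11), with no overlap between the genotypes at 3 h. At 6 h it was at 114 to 150 CPM, still above 0 h in both genotypes, and at 48 h at 67.3 to 80.5 CPM.

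The order of the 8 groups by mean level put KO at 3 h highest in 9 of the 10 members and WT at 48 h highest in JUND. For JUN the libraries of KO at 3 h overlapped those of WT at 48 h, and for JUND those of both genotypes at 48 h overlapped each other and KO at 3 h. For FOSB, JUNB, EGR1, EGR2, EGR3 and IER2 the next group was WT at 3 h, and the libraries of these 2 groups did not overlap. For FOS the next group was WT at 3 h too, whose libraries overlapped those of WT at 0 h. For ARC KO at 3 h stood above the rest without overlap, WT at 3 h overlapped WT at 6 h, and WT at 6 h overlapped KO at 6 h, which lay above WT at 0 h without overlap. Both 48 h groups were the lowest in FOS, FOSB, EGR1, EGR2 and EGR3. JUN and JUND were lowest in WT at 6 h, and JUNB, ARC and IER2 in KO at 0 h. The range over 24 libraries was widest in EGR3 (0.0204 to 36.4 CPM) and EGR1 (3.20 to 482 CPM), and narrowest in JUND (8.73 to 34.8 CPM).

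Over time, the members called in each comparison were read against all genes, since most genes changed during induction. Calls were made at an adjusted p under 0.05 in limma over 19835 genes. From 0 h to 3 h 8 members rose in WT and none fell, where 55.7% of all genes were called, 28.6% higher and 27.1% lower. In KO all 10 rose, where 65.7% of all genes were called, 33.1% higher and 32.6% lower. The median log2 change of the members was 1.48 in WT and 2.21 in KO, and that of all genes was 0.01 and -0.01. The 2 members not called in WT were JUN and JUND.

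At 6 h against 0 h 5 members were higher and 1 lower in WT, where 62.1% of all genes were called, 31.1% higher and 31.0% lower. In KO 4 were higher and 1 lower, where 68.5% were called, 33.4% higher and 35.1% lower. JUNB, EGR3, ARC and IER2 were higher in both, FOSB was higher in WT, and JUN was lower in both. The FOSB change in WT was 0.52 ± 0.17 (adjusted p = 0.0126), and without WT 0 h library 1 it was 0.24 ± 0.13 (0.119) and not called. In KO, JUN (-0.64) was not called without KO 0 h library 3 (-0.55), KO 6 h library 2 (-0.60) or library 3 (-0.61). EGR3 in KO (0.50) was not called without KO 0 h library 1 (0.43), KO 0 h library 3 (0.50), KO 6 h library 2 (0.48) or library 3 (0.47). Without WT 0 h library 1 the WT changes of FOS (-0.50), EGR1 (-1.23) and EGR2 (-0.65) at 6 h were called lower. At 48 h against 0 h 2 members were higher (JUN and JUND) and 5 lower (FOS, FOSB, EGR1, EGR2 and EGR3) in WT, where 53.3% of all genes were called, 26.8% higher and 26.5% lower. In KO JUND was higher and FOSB, EGR1, EGR2 and EGR3 were lower, where 52.8% of all genes were called, 25.4% higher and 27.4% lower. In WT the FOS change of -1.11 ± 0.40 (adjusted p = 0.0232) was -2.03 ± 0.11 (2.53e-13) without library 1 of 0 h. It was not called without library 2 (-0.68) or 3 (-0.63) of 0 h, or library 1 (-1.09) or 2 (-1.04) of 48 h. The JUN change in WT was 0.89 ± 0.24 (0.0037), and 0.51 ± 0.20 (0.0349) without WT 0 h library 1. EGR1 had log2 changes of -4.11 ± 0.55 in WT (adjusted p = 1.25e-06) and -2.94 ± 0.55 in KO (9.58e-05). Without WT 0 h library 1 the WT change of EGR1 was -5.37 ± 0.13 (1.75e-19). For EGR3 in KO the change was -2.41 ± 0.20 on this scale, which compresses low values, and -4.19 in edgeR, against -3.03 for EGR1 in edgeR.

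Between neighbouring hours, 5 members fell from 3 h to 6 h in WT (FOSB, JUN, EGR1, EGR2 and EGR3), where 15.1% of all genes were called, 6.75% higher and 8.31% lower. In KO all 10 fell, where 18.8% were called, 7.67% higher and 11.1% lower. From 6 h to 48 h 7 members fell and JUN and JUND rose in each genotype, where 63.8% of all genes were called in WT (30.9% higher, 32.8% lower) and 62.8% in KO (30.1% higher, 32.6% lower). Leaving out any 1 library of WT at 3 h or 6 h ended the EGR1 call from 3 h to 6 h in WT (log2 change -1.83 to -1.90), and any of these but WT 6 h library 2 ended that of JUN (-0.78 to -0.86). FOS from 6 h to 48 h in KO (-0.93, adjusted p = 0.0471) was not called in 24 of 35 alternative fits, 1 of them without KO 3 h library 3 (0.0508). The WT count from 3 h to 6 h was 9 when only the groups compared were fitted.

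**Figure D3:**
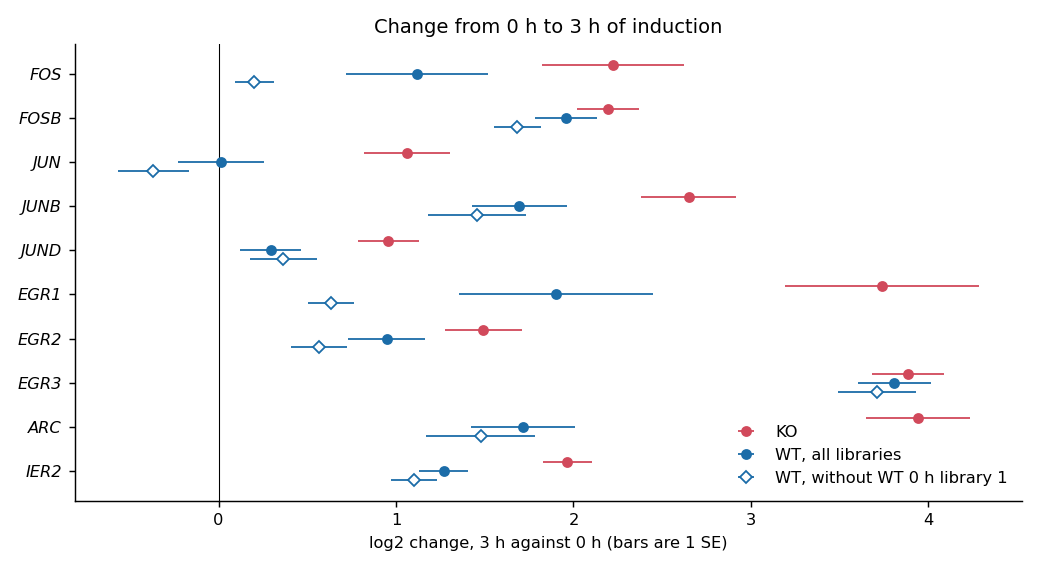
Log2 change of each member from 0 h to 3 h (horizontal axis, log2 units) with bars of 1 SE, for KO (red), WT with all libraries (filled blue) and WT without WT 0 h library 1 (open blue). KO changes lie to the right of zero for all 10 members, and leaving out that library moves the WT change of EGR1 from 1.90 to 0.64 and that of FOS from 1.12 to 0.20.

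Between the genotypes at 0 h, EGR3 was higher in KO (log2 difference 1.16 ± 0.20, adjusted p = 5e-04) and ARC was lower (-1.11 ± 0.29, 0.013), and no other member was called. Of all genes 15.3% were called at 0 h, 8.77% higher and 6.52% lower, so that 57.4% of these calls were higher, against 43.0% where the deposited CPM were not rescaled. ARC was not called without WT 0 h library 2 (-0.77, adjusted p = 0.113) or without KO 0 h library 1 (-0.99, 0.0663).

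EGR1 and FOS at 0 h depended on WT 0 h library 1. With all libraries the log2 difference between KO and WT was -1.19 ± 0.55 in EGR1 (adjusted p = 0.149) and -0.70 ± 0.40 in FOS (0.26). Without that library both were lower in KO, with log2 differences of -2.46 ± 0.13 in EGR1 (1.11e-11) and -1.61 ± 0.11 in FOS (3.19e-10). More of all genes were called in that limma fit too, where an unadjusted p of 0.0137 (EGR2) had an adjusted p of 0.0426. With edgeR on the recovered reads and all libraries, EGR1 (-1.93, 0.00741) and FOS (-1.14, 0.0355) were called lower too. In both other WT libraries at 0 h EGR1 and FOS were above every KO library.

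At 3 h 5 members were higher in KO and none lower, where 2.78% of all genes were called, 0.862% higher and 1.92% lower. JUN was higher by 1.10 ± 0.24 (log2, adjusted p = 0.00954), JUND by 0.95 ± 0.17 (0.00134), EGR3 by 1.24 ± 0.20 (0.00041), ARC by 1.12 ± 0.29 (0.0386) and IER2 by 0.57 ± 0.14 (0.0222). JUNB differed by 0.85 ± 0.27 (0.102), EGR1 by 0.65 ± 0.55 (0.585), EGR2 by 0.50 ± 0.22 (0.26), FOS by 0.41 ± 0.40 (0.65) and FOSB by 0.34 ± 0.17 (0.338), and these were not called. All 10 members had every KO library above every WT library, where 13.1% of all genes did. The median difference of the members was 0.75, and that of all genes 0.02.

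**Figure D4:**
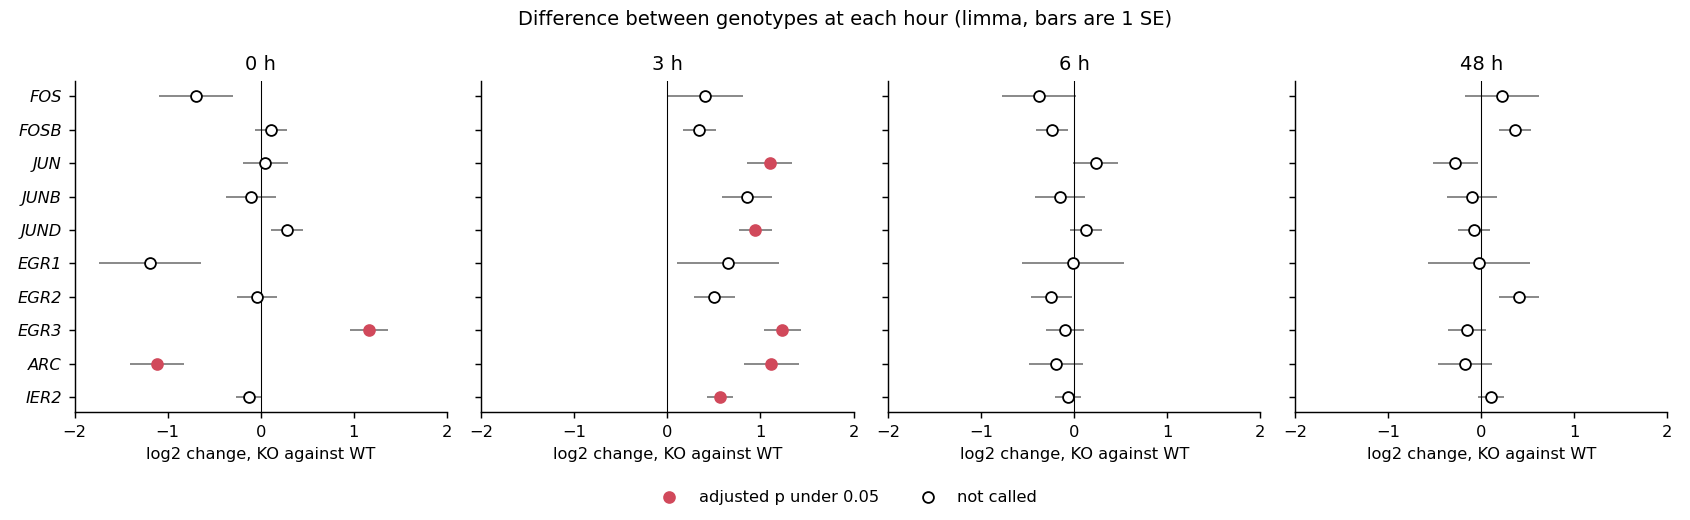
Log2 difference between KO and WT (horizontal axis, log2 units) for each member at 0, 3, 6 and 48 h with bars of 1 SE, filled where the adjusted p was under 0.05. At 3 h all 10 points lie to the right of zero and 5 are filled, at 0 h EGR3 and ARC are filled on opposite sides, and at 6 h and 48 h none is filled.

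Without KO 3 h library 3 JUND (0.69 ± 0.15, adjusted p = 0.00996) and EGR3 (0.97 ± 0.19, 0.00401) were still called at 3 h. JUN (0.80 ± 0.23, 0.0896), ARC (0.65 ± 0.25, 0.268) and IER2 (0.39 ± 0.13, 0.159) were not, and all 10 differences kept their direction. Of 35 alternative fits ARC was not called in 11 and IER2 in 6, which for both include leaving out any 1 library of WT at 3 h. KO libraries 1 and 2 lay above every WT library for all 10 members by the values given above. Without WT 0 h library 1, which is not in this comparison but enters the shared spread, the SE of EGR1 was 0.12 in place of 0.55 and that of FOS 0.10 in place of 0.40. EGR1 (0.65, 0.000687) and FOS (0.41, 0.0112) were then called at 3 h. More of all genes were called in that limma fit too, where an unadjusted p of 0.00229 (JUNB) had an adjusted p of 0.0412. Without WT 0 h library 1, KO 3 h library 3 and WT 48 h library 3 together, 8 members were called higher, and with only the 6 libraries of 3 h fitted none was called (EGR3 had the lowest adjusted p, 0.0545). More of all genes were called in limma without the 3 libraries too, where an unadjusted p of 0.00414 (JUNB) had an adjusted p of 0.0465. Fewer of all genes were called with the 3 h libraries alone, where EGR3 had an unadjusted p of 0.001.

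At 6 h limma called no member different between the genotypes, where 2.45% of all genes were called, and no member had an unadjusted p under 0.05 or a call by edgeR or DESeq2. EGR1 had a log2 difference of -0.02 ± 0.55, EGR3 of -0.11 ± 0.20 and ARC of -0.20 ± 0.29. FOS, FOSB and EGR2 lay lower in KO and JUN higher without overlap, where 13.9% and 15.9% of all genes did. FOS was called lower (-0.38) with only the 6 h libraries fitted (adjusted p = 0.00137) and without WT 0 h library 1 (0.0219). At 48 h limma called no member, where 11.9% of all genes were called, with 1 unadjusted p under 0.05 and no call by edgeR or DESeq2. Once scaled, FOSB and EGR2 lay higher in KO without overlap (18.3% of all genes), while the deposited CPM of FOSB overlapped. Without WT 0 h library 1 both were called (0.36, adjusted p = 0.0356, and 0.41, 0.0457). These 48 h levels rested on 22 to 45 reads per library for FOSB and 11 to 27 for EGR2. Whether the difference at 3 h changed by 6 h was not tested.

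The change since 0 h was compared between the genotypes directly. At 3 h it was larger in KO for ARC by 2.23 ± 0.42 (log2, adjusted p = 0.00108) and for IER2 by 0.69 ± 0.20 (0.0268), where 9.04% of all genes were called and 3.59% were higher. ARC stayed called in each of 35 alternative fits, and IER2 was not called in 9 of them. These include leaving out KO 3 h library 3 (0.52, 0.0597), library 2 or 3 of WT at 0 h (both 0.61), library 1 (0.64) or 2 (0.70) of KO at 0 h, and library 1 (0.67) or 2 (0.70) of WT at 3 h. The change of EGR3 in KO minus that in WT was -1.27 ± 0.29 at 6 h (0.0068) and -1.32 ± 0.29 at 48 h (0.00551). With all libraries EGR3 was the 1 member called at either hour. Of all genes 8.58% were called at 6 h (5.46% lower) and 7.75% at 48 h (3.92% lower). Without WT 0 h library 1 the difference was also called, and positive, for EGR1 (2.44, 5.71e-10), FOS (1.24, 1.45e-06) and ARC (1.15, 0.0439) at 6 h. At 48 h this held for EGR1 (2.43, 1.27e-09), FOS (1.83, 6.04e-09), FOSB (0.53, 0.0314), EGR2 (0.83, 0.00525) and ARC (1.17, 0.0387). EGR3 started higher in KO at 0 h and the genotypes overlapped at 6 h and 48 h. Without WT 0 h library 1 the 3 h change of EGR1 was larger in KO by 3.11 ± 0.17 (8.15e-12) and that of FOS by 2.02 ± 0.14 (6.03e-10), against 1.84 ± 0.77 (0.146) and 1.10 ± 0.57 (0.245) with it. JUN (1.43), JUNB (1.19), EGR2 (0.92) and FOSB were then called larger in KO too. More of all genes were called in that limma fit as well, where an unadjusted p of 0.00917 (FOSB) had an adjusted p of 0.0388.

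The second deposited table, of counts per transcript, gave another view of the same libraries. For JUNB, JUND, EGR1 and ARC the transcript counts were 80% to 132% of the reads behind the gene table in every library. Over all genes they totalled 22.1% to 26.4% of those reads, so a low share alone does not set a gene apart. For JUNB the ratio of KO to WT means at 3 h was 1.95 in the gene table and 1.96 in the transcript table, for JUND 2.00 and 1.93, for EGR1 1.59 and 1.71, for EGR3 2.46 and 2.30, and for ARC 2.46 and 2.69. FOSB and EGR2 had at most 2 and 8 transcript counts in a library, too few to compare.

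JUN, FOS and IER2 differed between the tables in how their libraries compared with each other. IER2 had 65 to 179 transcript counts in a library, 0.723% to 5.90% of the gene-table reads. Scaled to the transcript total, IER2 in WT was at 10.04, 8.69 and 10.8 CPM before induction and 8.96, 9.85 and 8.37 CPM after 3 h. The KO libraries had 10.5, 10.2 and 12.8 CPM at the start and 14.01, 13.3 and 9.89 CPM after 3 h. The groups at 0 h and 3 h thus overlapped in both genotypes, while in the gene table every 3 h library was above every 0 h library. JUN transcript counts were 3.17% of the gene-table reads in KO 3 h library 3 and 4.14% in WT 48 h library 3, against 5.62% to 21.8% in the other 22 libraries. For FOS the shares were 5.66% and 6.39% in the same libraries, against 11.9% to 25.3%. Scaled to the transcript total, JUN was at 10.6, 10.1 and 5.68 CPM in KO and 6.18, 5.32 and 6.96 CPM in WT at 3 h, so library 3 was the highest KO library in the gene table and the lowest in the transcript table. The ratio of KO to WT at 3 h was 2.27 for JUN in the gene table and 1.43 in the transcript table, and for FOS 1.33 and 0.987. Libraries 1 and 2 of KO were above all WT libraries for JUN in both tables.

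**Figure D5:**
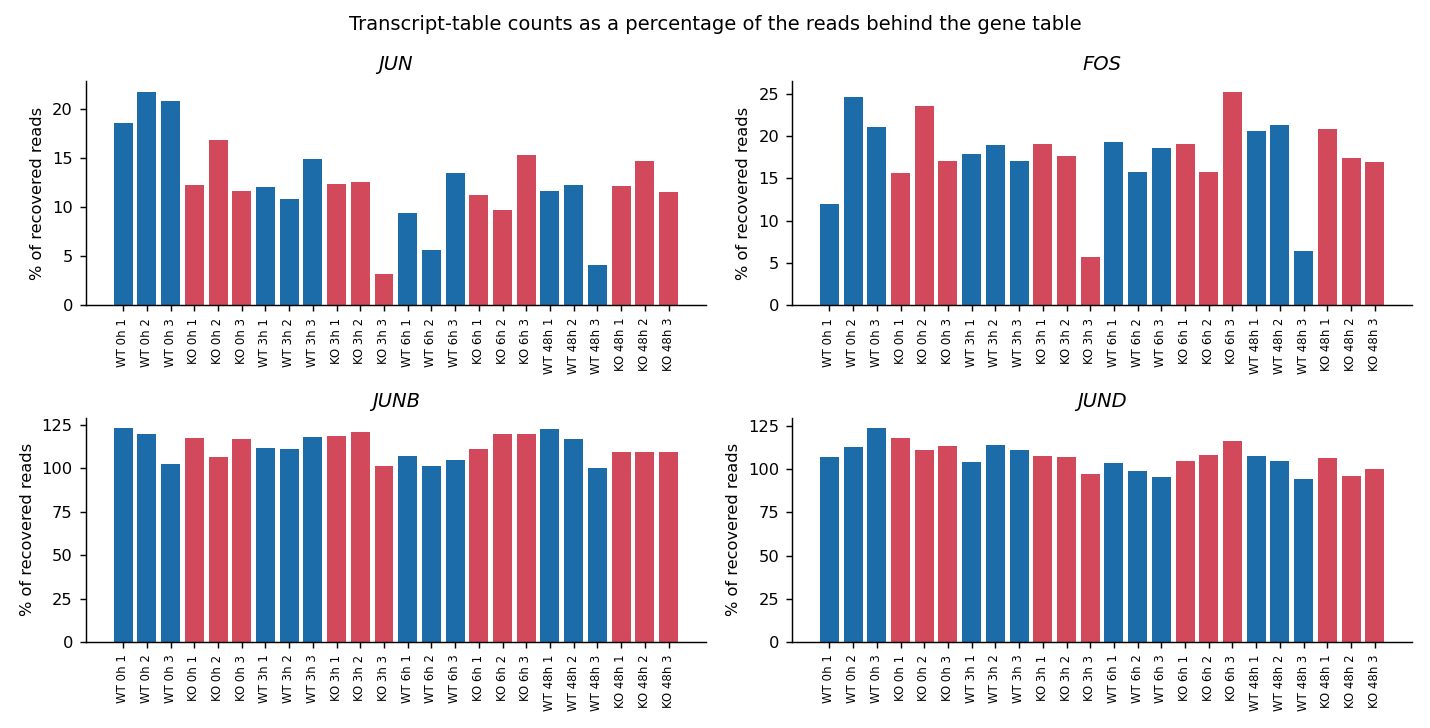
Transcript-table counts as a percentage of the reads behind the gene table, for JUN, FOS, JUNB and JUND in each of the 24 libraries (WT blue, KO red, axes from 0). JUNB and JUND stay near 100% in all libraries, while JUN and FOS drop to 3.17% and 5.66% in KO 3 h library 3 and to 4.14% and 6.39% in WT 48 h library 3.

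Other genes of the immediate early response followed at 3 h in part. Of all genes 0.862% were called higher in KO at 3 h and 1.92% lower. Of 16 other immediate early transcription factors 4 were higher in KO at 3 h and none lower, with a median of 0.32 against 0.02 in all genes. They were CSRNP1 (log2 0.92 ± 0.15, adjusted p = 0.000329), the helix-loop-helix repressor BHLHE40 (0.80 ± 0.17, 0.0062), the nuclear receptor NR4A2 (0.75 ± 0.18, 0.0213) and the zinc-finger factor KLF6 (0.41 ± 0.11, 0.0378). BHLHE40 (2.81 ± 0.17, 3.53e-10) and KLF6 (1.08 ± 0.11, 6.24e-07) were higher in KO at 0 h already, and their KO log2 changes from 0 h to 3 h were -0.30 ± 0.17 (0.122) and -0.07 ± 0.11 (0.566). NR4A2 was not called from 0 h to 3 h in WT (-0.06 ± 0.18, 0.789) or KO (0.39 ± 0.18, 0.0619). Its level at 3 h was 0.63 to 1.49 CPM over both genotypes. Of the 10 members only EGR3 was higher at 0 h in that fit.

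Among 24 immediate early genes that are not transcription factors 4 were higher in KO at 3 h and none lower, with a median of 0.40. They were RHOB, a small GTPase (0.57 ± 0.12, adjusted p = 0.00769), ZFP36, which binds AU-rich mRNA and speeds its decay (0.60 ± 0.15, 0.0234), the pseudokinase TRIB1 (0.38 ± 0.09, 0.0241) and the ERK phosphatase DUSP5 (0.50 ± 0.13, 0.03). RHOB (0.92 ± 0.12, 2.36e-05) and TRIB1 (0.32 ± 0.09, 0.0214) were higher in KO at 0 h already, and from 0 h to 3 h in KO the log2 change was 1.15 in RHOB and 0.07 (0.546) in TRIB1. ZFP36 and its paralogue ZFP36L1 (0.37 ± 0.10, 0.042) were the 2 higher of 11 factors that bind or degrade AU-rich mRNA, and ZFP36L2 was not called (0.48 ± 0.18, 0.192). At 6 h none of these 3 lists had a called member. KO 3 h library 3 was the highest KO library at 3 h in each gene called higher in these lists. CSRNP1 was at 25.6, 20.3 and 38.0 CPM in the KO libraries and 13.4 to 14.9 CPM in the WT libraries. Libraries 1 and 2 of KO were above all WT libraries in each of these genes too. How far the calls in the lists rest on KO 3 h library 3 was not tested.

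Of 23 upstream kinases and promoter factors none was higher and 1 lower in KO at 3 h, MAPK3, which encodes the kinase ERK1 (-0.70 ± 0.12, adjusted p = 0.000491), and it was lower at 6 h as well (-0.66 ± 0.12, 0.000906). The kinases MAP2K2 (0.30 ± 0.13, 0.274) and MAP2K1 (0.24 ± 0.11, 0.295) were not called. Of 10 partners and corepressors NAB2, which binds and restrains EGR proteins, was higher (0.84 ± 0.12, 7.75e-05), as it was at 0 h (0.52 ± 0.12, 0.00593), and MAFG (0.28 ± 0.11, 0.233) was not called. NAB2 was at 61.6, 55.3 and 79.0 CPM in the KO libraries and 35.3 to 37.1 CPM in the WT libraries at 3 h. Of 12 heat shock genes 1 was lower, HSPA1A (-1.27 ± 0.14, 1.78e-06), and HSPH1 (0.24 ± 0.18, 0.542) and BAG3 (0.18 ± 0.14, 0.544) were not called. HSPA1A has a near-identical copy, HSPA1B, so its reads may be split between the 2 genes.

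The members were not equally alike across the 24 libraries, which share genotype, hour and depth. On the log2 scale 8 members had a Pearson r of 0.78 (EGR2) to 0.91 (JUNB) with the mean of the other 9, while JUN had 0.14 and JUND -0.02. The pair most alike was FOSB with EGR3 (r = 0.97), and the pair least alike JUND with EGR1 (r = -0.38). Of 14306 other genes, ZFP36 was the most like the mean of the members (r = 0.96), followed by NRARP (0.94), ZCCHC8 (0.94), ATF3 (0.93), ZFHX3 (0.93) and LRATD2 (0.93). HES2 (0.98) and SLC1A3 (0.95) were the most like EGR1, ZFP36 (0.97) and CEBPB (0.95) the most like JUNB, and SBK1 (0.90) and NELFB (0.89) the most like JUND.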

How the data were processed

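Stranded mRNA libraries (TruSeq) were made from RNA of HUES6 cells, per the labels' protocols, and sample labels gave the groups. CPM of 57820 genes make up the gene table deposited by the authors, whose header is offset by 1 cell. Once the offset was corrected, 23 of 24 columns had their best correlation with the transcript column of the same name (r from 0.609 to 0.809 over 14760 genes), and 0 did before. In each column 100% of values were whole numbers of reads within 0.1 read, from which read numbers were recovered. Counts per transcript, whole numbers that differ in total between libraries, stand in another deposited table and total 22.1% to 26.4% of the recovered reads. No column of other samples was present. The submitters' processing notes name hg38 and DESeq2, while the aligner and annotation are not given in the sources used here. Symbols came from GENCODE 29 (90.5% of identifiers).

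CPM were divided by TMM factors (edgeR 4.0.16) from the recovered reads, and log2(CPM + 0.25) was tested with limma 3.58.1 with a trend (R 4.3.3). Fold changes are on that scale and understate changes of low genes. filterByExpr (minimum of 10 reads, 15 in total) kept 19835 genes. All 24 libraries entered 1 fit with 17 two-sided comparisons, with Benjamini-Hochberg adjustment over all tested genes, and calls were made under 0.05. A library with no read allows up to 3 reads, 0.0595 to 0.100 CPM, for counting error only. The alternatives were pseudocounts of 0.1 and 1, CPM as deposited, RLE factors, a fit of only the groups compared, no filter (38005 genes), a replicate block, a floor of 5 CPM in 3 or more libraries (12376 genes), edgeR and DESeq2 (1.42.0) on the recovered reads, each library left out in turn, and 3 libraries left out together. The tests were tested on simulated data. One gene that the naming rule picked is not reported here. The members, lists and alternatives were chosen with earlier results of these data known. All members were named, with, from each other list, the genes called at 3 h between genotypes and up to 3 with the smallest adjusted p, and the genes of at least 1 CPM most alike by Pearson r. Figures used Python 3.11 and matplotlib 3.10.9.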

Additional observations from a re-analysis of the deposited data

Results flagged for a closer look

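The change since 0 h differed between the genotypes in a direct test (the interaction in limma) for 3 members. ARC changed more from 0 h to 3 h in KO, by 2.23 on the log2 scale (adjusted p = 0.00108), with KO libraries below all WT libraries at 0 h and above all of them at 3 h. Without KO 3 h library 3 the value was 1.77 (0.00138). IER2 changed more in KO at 3 h by 0.69 (0.0268), and without KO 3 h library 3 the value was 0.52 (0.0597). For EGR3 the change in KO minus that in WT was -1.27 at 6 h (0.0068) and -1.32 at 48 h (0.00551), with all 3 KO libraries above all WT libraries at 0 h. In edgeR the EGR3 difference at 48 h was -2.08 (0.0714), where the 48 h libraries hold few reads of EGR3. No group had the 4 libraries that a check for outlying values needs.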

How the results depend on the processing

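Members called in KO against WT numbered 2 at 0 h in the fit reported. They were 1 with a pseudocount of 1, 0 with only the groups compared, 4 with edgeR, 4 with DESeq2, and 8 without the 3 libraries that stood apart. At 3 h 5 became 3 with no filter, 0 with only the groups compared and 8 without the 3 libraries. At 6 h 0 became 1 with only the groups compared and 1 without the 3 libraries, and at 48 h 0 became 3 without them. Against 0 h, the KO counts of 5 at 6 h and 5 at 48 h became 8 and 8 with only the groups compared and 8 and 9 without the 3 libraries. The interaction count of 2 at 3 h became 1 with no filter, 1 with only the groups compared, 4 with edgeR, 5 with DESeq2 and 7 without the 3 libraries. The count of 1 at 6 h became 5, and that of 1 at 48 h became 7, without the 3 libraries, and 0 with edgeR at 48 h. From 3 h to 6 h in WT 5 became 3 with no filter, 9 with only the groups compared and 9 without the 3 libraries. Without the 3 libraries more of all genes were called in the interactions and in this step too. In that limma fit an unadjusted p of 0.0119 (FOSB, interaction at 48 h) had an adjusted p of 0.0337. For JUND from 3 h to 6 h in WT the 2 values were 0.00326 and 0.0118. Totals over all genes in the alternative fits are given here only for KO against WT. Leaving out 1 library at a time gave 1 to 5 calls for KO against WT at 0 h, 2 to 9 at 3 h, 0 to 1 at 6 h and 0 to 2 at 48 h. Against 0 h it gave 7 to 8, 6 to 8 and 6 to 8 in WT, and 10 to 10, 3 to 8 and 5 to 6 in KO, at 3, 6 and 48 h. The interactions gave 1 to 8, 1 to 4 and 1 to 6, and the steps from 3 h to 6 h and from 6 h to 48 h gave 3 to 7 and 9 to 10 in WT and 10 to 10 and 8 to 9 in KO. Without WT 0 h library 1 the change from 0 h to 6 h in WT reversed in EGR1 (range with 1 library left out -1.23 to 0.69) and FOS (-0.50 to 0.90), and JUN, not called, moved to -0.33 in KO against WT at 0 h and to -0.37 in WT at 3 h against 0 h. Without the 3 libraries these 4 values were the same and all were called. The cause was not tested. Of 170 member values 170 kept their call with the stricter filter, and 168 with RLE factors. Same-numbered libraries of different groups did not deviate together (84 pairs, r from -0.19 to 0.22, 8 over 0.1), so the numbers were not taken as pairs. The replicate block left 2 calls at 0 h and 5 at 3 h between the genotypes and changed 2 member calls, JUN at 48 h against 0 h in KO (0.56, adjusted p = 0.0365) and in the interaction at 3 h (1.05, 0.0369). Over all genes, KO against WT at 0, 3, 6 and 48 h had 3032, 552, 486 and 2365 calls. Fitting the groups compared alone gave 142, 346, 2194 and 2781, leaving out the 3 libraries gave 9341, 1827, 2416 and 4759, and edgeR gave 2781, 557, 468 and 2326.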

Other observations

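Of the transcripts of FOS, FOS-206 was singled out after its counts were seen. In the GENCODE 29 annotation it is a protein-coding model that begins within an intron of the main transcript FOS-201. It had 33 counts in WT 0 h library 2 and 29 in library 3, which is 10.2% (95% exact binomial interval 7.16% to 14.1%) and 10.7% (7.26% to 14.95%) of the FOS transcript counts. In the other 22 libraries it had 0 to 8 counts and 0% to 5% of the FOS transcript counts, the 3 h libraries included, where FOS in the gene table was as high or higher. WT 0 h library 1 had 0 of 26 FOS transcript counts, which allows a share of up to 13.2% by the same interval. The intervals cover counting error only.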
